A study of Mus musculus with 12 samples.

Results

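The genes described here make cholesterol, move it inside the cell and set the activity of SREBP2, the transcription factor that switches on its synthesis. They are 28 named genes, picked from a written list by symbol, of the 26748 Ensembl gene identifiers in the deposited table. All 28 were found, and all 28 reached the 11018 genes tested. RNA of hepatocytes from male C57bl/6 mice was sequenced in 12 libraries, 3 in each of 4 groups. The groups were floxed controls, floxed mice given bexarotene (an agonist of retinoid X receptors, 100 mg/kg once a day for 5 days), hepatic Rxra knockout controls, and knockout mice given bexarotene on the same schedule. What the controls received, the age of the mice and the promoter that drove the deletion are not given in the sources used here. Values are TPM (transcript abundance scaled for length and to a fixed total), so levels of different genes can be set side by side, while the depth of each library is unknown.

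For floxed controls 1 and 3, the SD of the log2 difference left after counting noise was 0.0498. For the 3 pairs of treated knockout libraries it was 0.0357 to 0.0698, against 0.149 to 0.457 for the other 8 pairs within groups. Each close set was averaged and counted as 1 sample, which leaves n = 2, 3, 3 and 1 samples in the order above. Rxra stood at 79.5 to 86.0 TPM in floxed libraries and at 26.1 to 33.1 TPM in knockout libraries, over all exons. Hepatocyte markers were high in every library, with a summed level of 60640 to 89101 TPM. Markers of macrophages summed to 14.3 to 83.3 TPM and those of endothelial cells to 12.2 to 28.5 TPM. In bulk RNA, fewer cells of a type and less RNA per cell cannot be told apart. Knockout control 5 stood apart from knockout controls 1 and 2 in its clock and fasting genes, as given with Insig2 below.

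Cholesterol is built from acetyl-CoA through mevalonate and farnesyl diphosphate to squalene, which is then closed into a ring and trimmed to cholesterol. SREBP2, the product of Srebf2, is held in the endoplasmic reticulum with its escort SCAP. When sterols are plentiful the INSIG proteins keep SCAP there, and when sterols fall SCAP carries SREBP2 to the Golgi to be cut and released to the nucleus. The liver is a main site of this synthesis, and its genes are known to follow feeding and the time of day.

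Promoter sequences show what these genes share that the list did not use. RefSeq windows on GRCm38.p6, from 250 bases before to 50 after a start, were found for 22 of the 28 members, in 28 windows; Fdft1, Fdps, Npc1, Soat2, Sqle and Stard4 had none in the table. The box CCAAT, which is bound by NF-Y, a known partner of SREBPs, occurred on either strand in 20 of these 22 genes, against 41.1% of all 27025 genes with a window. The sterol regulatory element TCACNCCAC, searched on both strands, occurred only in Hmgcs1 among the 22, against 1.44% of all genes. Sites that differ from these letters were not searched for, so the other genes cannot be said to lack such elements. The nuclear receptor half-site AGGTCA occurred in 3 of the 22, in Hmgcs1, Dhcr7 and Insig1, against 18.1% of all genes. A direct repeat of such half-sites with 1 base between the copies (AGGNCA in each) occurred in 0 of them, against 0.451%. Of the 28 windows, 20 held CCAAT (71.4%, against 37.4% of 32851 windows). The windows of Msmo1 and Nsdhl are shown because both genes were called higher together. That of Hmgcs1 is shown for its sterol element and the most upstream one of Insig2 for its large differences between libraries; these last choices were made after their values were seen. Capitals mark CCAAT, its reverse complement ATTGG and the sterol element, and each sequence reads 5′ to 3′ along the gene's strand.
Msmo1, chr8:64733529-64733828, minus strand: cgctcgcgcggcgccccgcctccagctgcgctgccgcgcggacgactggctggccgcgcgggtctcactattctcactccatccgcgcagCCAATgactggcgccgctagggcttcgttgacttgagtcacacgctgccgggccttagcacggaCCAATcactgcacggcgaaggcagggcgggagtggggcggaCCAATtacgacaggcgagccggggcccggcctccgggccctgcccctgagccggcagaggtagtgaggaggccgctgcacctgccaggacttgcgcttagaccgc
Nsdhl, chrX:72918271-72918570, plus strand: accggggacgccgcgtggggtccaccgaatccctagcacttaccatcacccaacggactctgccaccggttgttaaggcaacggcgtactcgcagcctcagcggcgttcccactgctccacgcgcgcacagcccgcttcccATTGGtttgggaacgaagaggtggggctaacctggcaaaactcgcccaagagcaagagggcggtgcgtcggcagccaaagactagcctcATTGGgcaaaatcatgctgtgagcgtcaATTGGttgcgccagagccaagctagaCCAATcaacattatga
Hmgcs1, chr13:119690101-119690400, plus strand: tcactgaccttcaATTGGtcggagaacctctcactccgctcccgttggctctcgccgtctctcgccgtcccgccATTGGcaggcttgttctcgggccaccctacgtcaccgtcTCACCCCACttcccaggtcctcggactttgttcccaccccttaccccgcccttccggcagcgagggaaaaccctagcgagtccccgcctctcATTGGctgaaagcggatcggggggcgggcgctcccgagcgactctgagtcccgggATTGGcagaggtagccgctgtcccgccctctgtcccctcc
Insig2, chr1:121332540-121332839, minus strand: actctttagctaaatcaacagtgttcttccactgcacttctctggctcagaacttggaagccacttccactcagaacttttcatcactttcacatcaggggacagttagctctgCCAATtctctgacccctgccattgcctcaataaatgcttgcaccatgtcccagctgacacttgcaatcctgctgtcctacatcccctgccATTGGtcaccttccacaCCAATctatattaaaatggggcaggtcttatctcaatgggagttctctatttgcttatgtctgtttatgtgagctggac
Msmo1 and Insig2 each held 3 CCAAT boxes in either orientation and Nsdhl and Hmgcs1 each held 4. The other 2 windows of Insig2 held 0. Such a match is only a match of letters, and no binding was measured.

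In floxed controls the members spanned a wide range of levels. Fdps, the farnesyl diphosphate synthase, and Insig2 were the highest, at means of 282 ± 137 and 275 ± 0.219 TPM (SD, n = 2 here and below for floxed controls). The SD of Insig2 is small because floxed controls 1 and 3, at 329 and 220 TPM, were averaged to a value near the 275 TPM of floxed control 4. The libraries of Fdps, at 178, 192 and 379 TPM, overlapped those of Insig2. Ebp (154 ± 22.7), Sc5d (141 ± 27.8) and Tm7sf2 (116 ± 10.4), which encode an isomerase, a desaturase and a reductase of the late sterol ring steps, followed. Ebp and Sc5d lay within their spread of each other, as did Sc5d and Tm7sf2. Lbr at 2.54 ± 0.368 TPM and Ggps1 at 2.81 ± 0.728 TPM were lowest and lay within theirs. Tm7sf2 and Lbr encode reductases for the same ring step, and Tm7sf2 stood 32.8 to 74.9 times above Lbr in every one of the 12 libraries. Lbr also encodes an inner nuclear membrane protein. Ggps1 makes geranylgeranyl diphosphate, the precursor of protein prenyl groups, and stood at 2.21, 2.39 and 3.33 TPM in floxed controls 1, 3 and 4. It stood at 2.04, 2.14 and 2.60 TPM in floxed bexarotene 1, 3 and 4, at 1.64, 2.55 and 2.5 TPM in knockout controls 1, 2 and 5, and at 2.82, 2.17 and 2.69 TPM in treated knockout 1, 2 and 3. Ggps1 thus overlapped between all 4 groups.

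**Figure D1:**
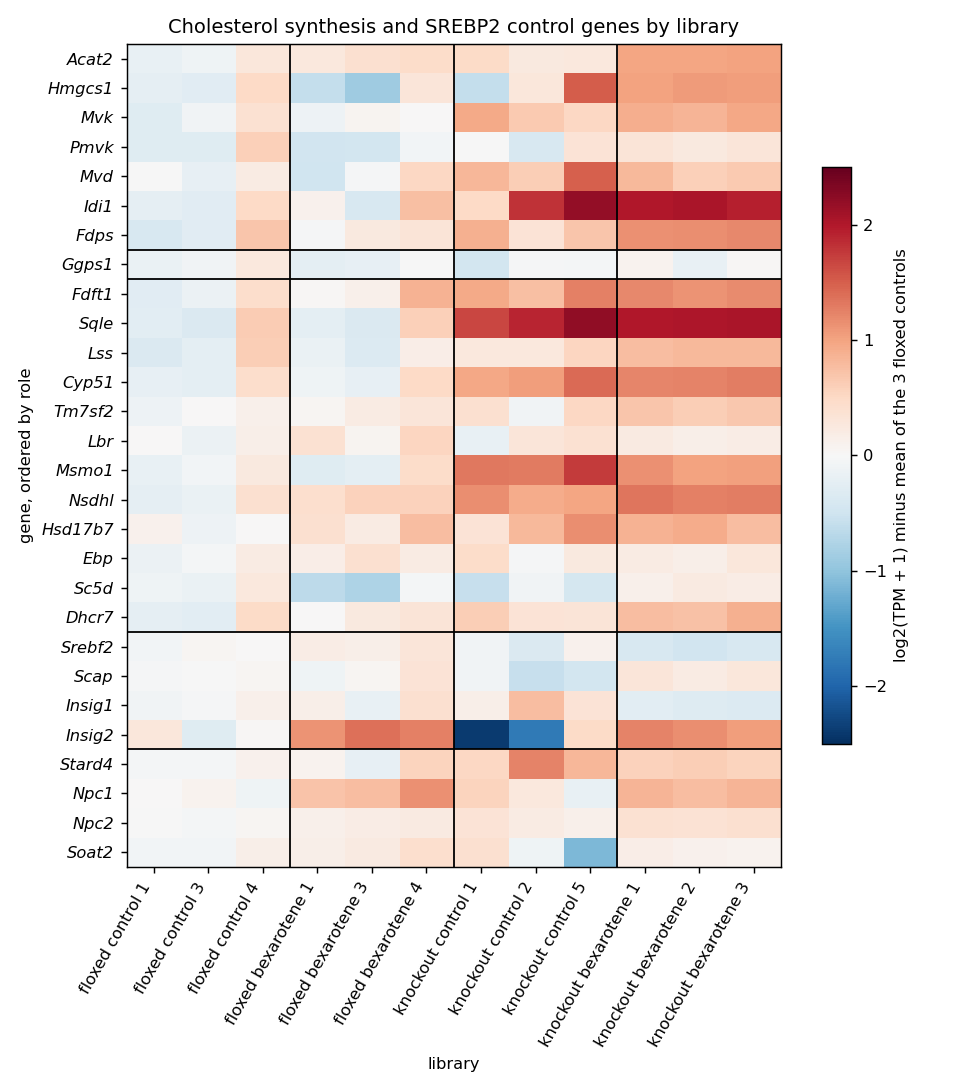
Heat map of log2(TPM + 1) of the 28 genes (rows, in order of role) in each of 12 libraries (columns), minus the mean of the 3 floxed controls. Red is higher and blue lower; Sqle, Msmo1, Nsdhl and Cyp51 are red in all 6 knockout libraries, and Insig2 is deepest blue in knockout controls 1 and 2.

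Without the drug, 3 of the 12 genes of the squalene and sterol steps rose in knockout hepatocytes, and no other member passed. Of the 28 members 3 passed the test, all higher, where 1.83% of the 11018 tested genes passed in that direction and 1.92% lower (limma on log2(TPM + 1), Benjamini-Hochberg adjustment over all tested genes, adjusted p under 0.05). The 3 were Sqle, Msmo1 and Nsdhl. Here and below every fold is given as a log2 fold change, so a fold above 0 means a higher level and one below 0 a lower level. The fold was above 0 for 21 of 28 members, with a median log2 fold change of 0.27, against 0.0039 and 50.4% above 0 over all tested genes. Among the 20 enzymes it was above 0 for 17, with a median of 0.39. The question here is what loss of RXRα changes before any agonist is given.

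Sqle (ENSMUSG00000022351) encodes squalene epoxidase, which is known as a slow step of the pathway. It stood at 12.5, 11.6 and 24.1 TPM in floxed controls 1, 3 and 4 and at 50.5, 59.6 and 74.5 TPM in knockout controls 1, 2 and 5. The groups did not overlap, and the lowest knockout library held more than the highest floxed one. Sqle rose by a log2 fold change of 1.77 ± 0.36 (SE), from 18.1 ± 8.57 to 61.5 ± 12.1 TPM (SD, n = 2 and n = 3; limma adjusted p = 0.0331).

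Msmo1 (ENSMUSG00000031604) encodes the sterol methyl oxidase that starts the removal of methyl groups from the ring. Its level was 53.8, 58.5 and 72.1 TPM in floxed controls and 154, 152 and 209 TPM in knockout controls, with no overlap. It rose by 1.40 ± 0.26 on the log2 scale (limma adjusted p = 0.0233). Nsdhl (ENSMUSG00000031349) encodes the dehydrogenase that acts after it. Its level was 24.1, 24.9 and 37.5 TPM in floxed controls and 64.4, 54.5 and 57.0 TPM in knockout controls, again with no overlap. It rose by 0.92 ± 0.18 (limma adjusted p = 0.0308). Hsd17b7, whose enzyme reduces the ketone left by these steps, did not pass (0.77 ± 0.25, limma adjusted p = 0.167). Exons of Sqle, Msmo1 and Nsdhl overlap no other gene's exons in GENCODE M21.

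These 3 calls rested on few samples. Without floxed control 4 the limma adjusted p was 0.0588 for Sqle and 0.104 for Msmo1. Without the averaged pair of floxed controls 1 and 3 it was 0.227 for Sqle, 0.183 for Msmo1 and 0.186 for Nsdhl. Without knockout control 2 it was 0.0982, 0.0582 and 0.0762 in the same order. The Sqle call was also lost without knockout control 5 (0.0560), floxed bexarotene 1 (0.0590) or floxed bexarotene 3 (0.0514). The Nsdhl call was lost without knockout control 1 (0.0633) or floxed bexarotene 1, 3 or 4 (0.0620, 0.0625 and 0.0544). Over the 22 alternatives tried, the log2 fold change ran from 1.30 to 2.24 for Sqle, from 1.22 to 1.58 for Msmo1 and from 0.63 to 1.22 for Nsdhl. The adjusted p ran from 0.00118 to 0.227, from 6.22e-04 to 0.183 and from 9.30e-04 to 0.186. All 3 calls were lost with no filter on low values (0.143, 0.109 and 0.103). With only the control groups in the fit, Sqle (0.0635) and Nsdhl (0.119) were lost.

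Other enzymes were higher by folds that did not pass. Cyp51, the lanosterol demethylase, stood at 26.0, 25.3 and 41.0 TPM in floxed controls and 59.5, 63.0 and 81.2 TPM in knockout controls (1.03 ± 0.27, limma adjusted p = 0.0813). Its exons share 3.76% of their bases with Akap9 on the opposite strand. Fdft1, squalene synthase, had a log2 fold change of 0.87 ± 0.30, with 18.3% of its exon bases shared with Ctsb on the opposite strand. Among the early steps, Mvk (mevalonate kinase) had 0.61 ± 0.20 and Mvd (the decarboxylase that follows the kinases) 0.92 ± 0.34. Idi1, the isomerase of the 5-carbon units, had 1.37 ± 0.52. Stard4, which carries cholesterol between membranes, had 0.84 ± 0.27. Counting libraries, 11 of 28 members (39.3%) were higher in every knockout control than in any floxed control, against 14.2% of all tested genes, and 1, Scap, was lower (against 11.1%). With 12 separate libraries 10 members passed higher and 0 lower, where 6.71% and 5.11% of all tested genes did. The 11 members that did not overlap were Mvk, Mvd, Fdft1, Sqle, Cyp51, Msmo1, Nsdhl, Hsd17b7, Insig1, Stard4 and Npc2.

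Fdps was the highest of the early enzymes, with a fold of 0.47 ± 0.29 in knockout controls that did not pass. It stood at 178, 192 and 379 TPM in floxed controls, 229, 278 and 292 TPM in treated floxed libraries, 434, 298 and 381 TPM in knockout controls and 522, 528 and 544 TPM in treated knockout libraries. Floxed control 4 lay among the knockout controls, and the treated knockout libraries lay above all others. Of its exon bases 26.7% are shared with Gm43738 on the same strand. Pmvk, Ggps1, Sc5d, Srebf2, Scap, Insig2 and Soat2 were the 7 members with a fold below 0 in knockout controls, and of these Insig2 had the largest (described below). Acat2, Hmgcs1, Lss, Tm7sf2, Lbr, Ebp, Dhcr7, Insig1, Npc1 and Npc2 had folds between 0.13 and 0.39 and none passed. Acat2, the cytosolic thiolase that joins acetyl-CoA units, has a close paralog in the mouse, Acat3, so its level is uncertain where reads are shared. Tm7sf2 shares 12.1% of its exon bases with Vps51 on the same strand.

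**Figure D2:**
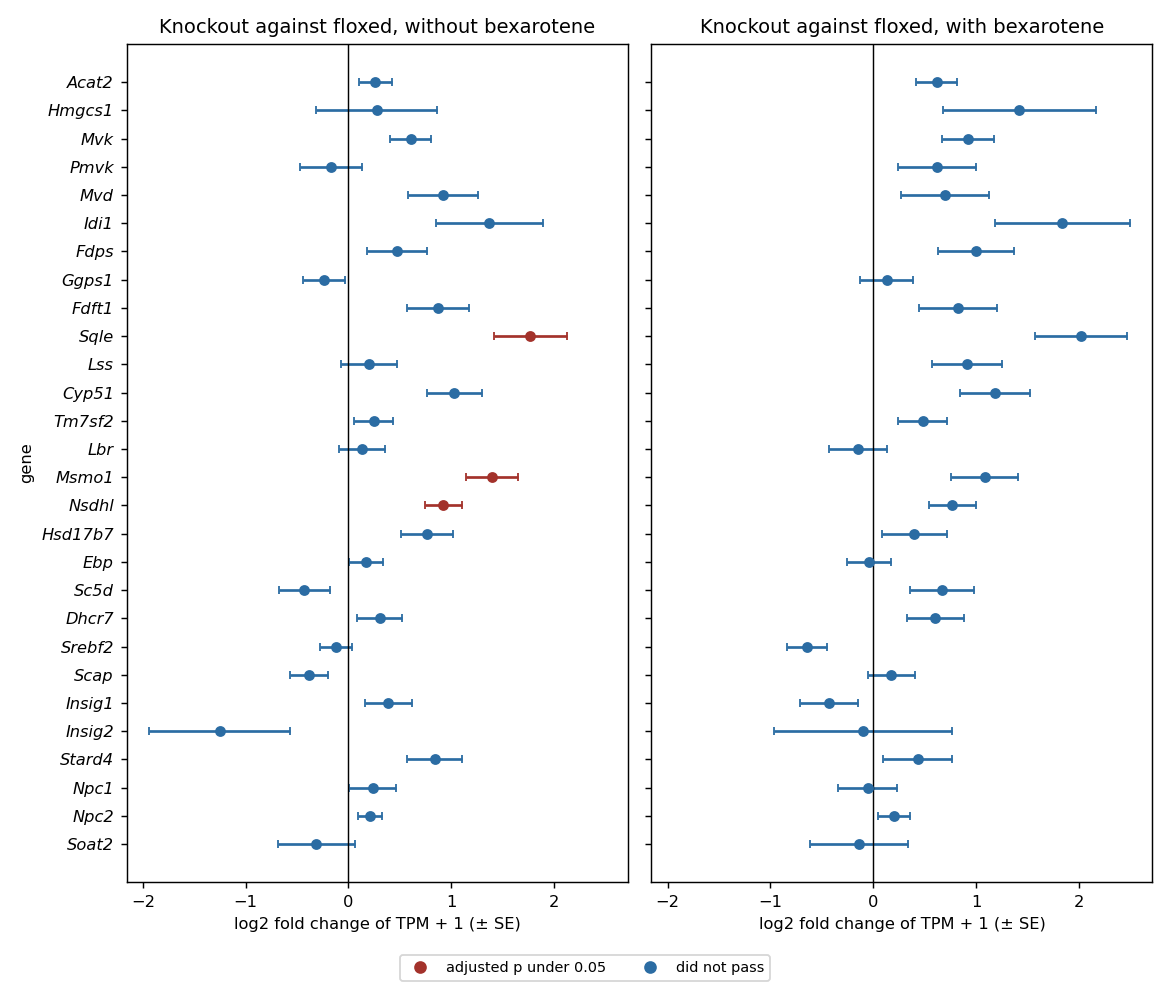
Log2 fold change of TPM + 1 between knockout and floxed samples for each of the 28 genes, without bexarotene (left) and with it (right); bars are 1 SE from the limma fit. Sqle, Msmo1 and Nsdhl pass the test on the left. No gene is marked as passing on the right, where the treated knockout is 1 sample and the log2 fold change of Sqle is 2.02.

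Under bexarotene the fold of the knockout was above 0 for 18 of the 20 enzymes, but 0 of 28 members passed limma's test with the treated knockout counted as 1 sample. Over all tested genes 1.93% passed, 0.681% higher and 1.25% lower. The fold was above 0 for 21 of 28 members (75%), against 55.3% of all tested genes. The median log2 fold change was 0.61 over the 28 members, against 0.040 over all tested genes. In 18 of 28 members (64.3%) every treated knockout library was above every treated floxed library, against 23.2% of all tested genes. In 2, Srebf2 and Insig1, every one was below, against 19.2%.

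The largest folds were those of Sqle (2.02 ± 0.45, limma adjusted p = 0.0730) and Idi1 (1.84 ± 0.65, adjusted p = 0.287). Sqle stood at 12.7, 11.7 and 23.5 TPM in treated floxed libraries and at 63.8, 64.5 and 66.0 TPM in treated knockout libraries. Idi1, named here after its values were seen, stood at 36.2, 25.0 and 56.8 TPM against 136, 140 and 132 TPM. Neither gene overlapped between these groups. Sqle passed without floxed bexarotene 4 (adjusted p = 0.0364) and with the GC and length trend removed (0.0473), over a range of 7.26e-04 to 0.203 in all alternatives. Mvk, with 0.92 ± 0.26, passed with that trend removed (0.0272; range 0.00341 to 0.349). Hmgcs1 (1.42 ± 0.74), Cyp51 (1.19 ± 0.34), Msmo1 (1.08 ± 0.32), Fdps (1.00 ± 0.37) and Lss (0.91 ± 0.34), the lanosterol synthase, followed. With the 12 libraries counted as separate samples, 13 members passed higher and 1, Srebf2, lower, where 7.22% and 7.21% of all tested genes did. That count takes the near-identical treated knockout libraries as 3 independent samples.

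The summed level of the 20 enzymes shows the same order. It was 875 to 1370 TPM in floxed controls, 971 to 1275 TPM in treated floxed libraries, 1407 to 1794 TPM in knockout controls and 1894 to 1945 TPM in treated knockout libraries. The floxed groups overlapped each other, and no knockout library was as low as any floxed one. Fdps makes up the largest part of this sum.

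Within groups, single libraries were the highest for most of these genes. Floxed control 4 was the highest of the 3 floxed controls for 19 of 20 enzymes, and for 47.8% of all tested genes. Floxed bexarotene 4 was the highest of its group for 17 of 20 enzymes, and for 40.4% of all tested genes. These 2 libraries also had the highest macrophage marker sums of their groups, 83.3 TPM against 23.5 and 26.9 TPM, and 63.3 TPM against 18.3 and 21.6 TPM. The treated knockout libraries had 66.6 to 75.7 TPM, and the knockout controls 14.3 to 30.7 TPM. Hepatocyte markers differed between the genotypes too, but not all in the same direction. For the knockout in controls 8 of 11 had a fold above 0 and 3 below. The median was 0.34 beside 0.39 for the enzymes. Ttr (0.90 ± 0.15) and Apoa1 (0.92 ± 0.18) rose and 0 fell, where 1.83% and 1.92% of all tested genes did. Alb was lower in every knockout control (32732 to 34341 TPM) than in any floxed control (38361 to 46053 TPM). Under bexarotene 10 of 11 had a fold above 0, with a median of 0.43 beside 0.73 for the enzymes, and Ttr was called higher in the knockout (1.17 ± 0.19). The summed level of 5 erythroid markers was highest in floxed control 4 (692 TPM against 213 and 223 TPM) and floxed bexarotene 4 (626 TPM against 237 and 331 TPM). It was 214 to 414 TPM in knockout controls and 647 to 743 TPM in the treated knockout. Of the 5, Alas2 rose in knockout controls (1.15 ± 0.14). The 4 globin genes had folds below 0 there, and the median of the 5 was -1.16. All 12 macrophage markers were above 0 TPM in every library; the fold was below 0 for 10 of 10 tested markers in knockout controls and above 0 for 10 of 10 in the knockout under bexarotene, and 0 passed. The part of any of these cells in the enzyme levels was not tested. Without floxed control 4 the members' median fold for the knockout in controls was 0.57, and without floxed controls 1 and 3 it was 0.10. Knockout control 5 was the highest of its group for 12 of 20 enzymes, against 26.3% of all tested genes, and the widest spreads within any group were those of Insig2, Hmgcs1, Soat2 and Idi1 among knockout controls. Hmgcs1, which condenses acetoacetyl-CoA with acetyl-CoA, stood there at 22.8, 43.0 and 101 TPM.

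**Figure D3:**
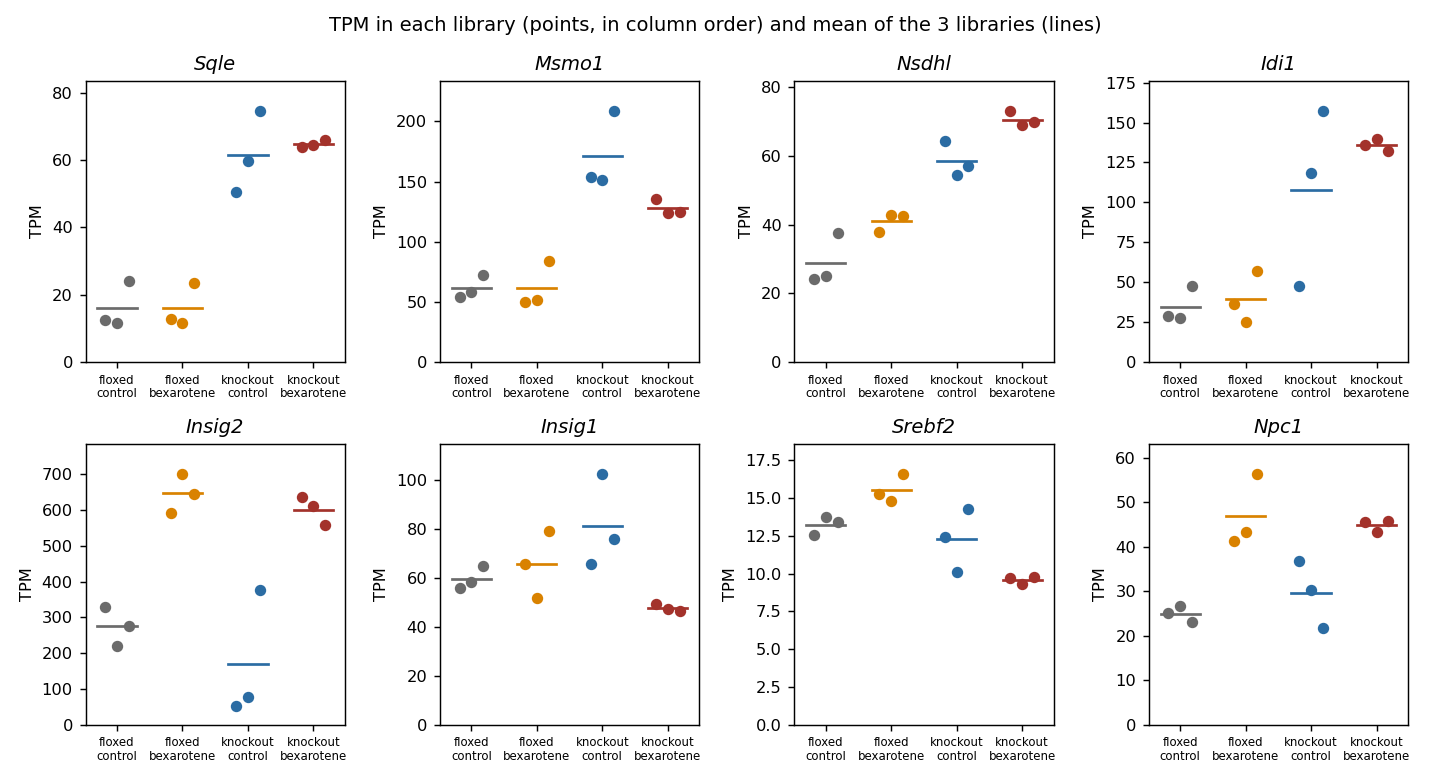
TPM of 8 genes in each library (points, 3 per group, in column order) with the mean of the 3 libraries (lines); axes start at 0. Sqle, Msmo1 and Nsdhl lie higher in both knockout groups, Insig2 lies at 557 to 702 TPM in both bexarotene groups, and Srebf2 is lowest in the treated knockout.

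In floxed mice the folds of the synthesis enzymes under bexarotene went both ways and none passed. With limma 0 of 28 members passed, where 2.12% of all tested genes passed, 1.84% higher and 0.281% lower. The unadjusted p was under 0.05 for 2 members (Nsdhl and Npc1), and the share of all tested genes at that threshold was not counted. The median log2 fold change was 0.084 over the members, and it was 0.062 over all tested genes. For the 20 enzymes it was -0.022, with 10 above 0 and 10 below, where 58.6% of all tested genes were above 0. The enzymes farthest from 0 were Sc5d (-0.56 ± 0.25), Hmgcs1 (-0.51 ± 0.59), Pmvk (-0.48 ± 0.30), Hsd17b7 (0.45 ± 0.25) and Nsdhl (0.42 ± 0.18). Libraries did not overlap for 7 members (25%), all higher, and 25.7% of all tested genes were so; 0 members were lower in every treated library, against 9.59%. With 12 separate libraries Npc1 and Nsdhl passed higher and 0 lower, where 7.57% and 2.07% of all tested genes did. Sqle had a fold of -0.16 ± 0.36, whose interval of 1 SE holds 0, and its levels in the 2 floxed groups overlapped. A p that misses the threshold does not show that levels were equal.

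Npc1 and Insig2 were the members with the largest folds under bexarotene in floxed mice. Npc1 (ENSMUSG00000024413), which exports cholesterol from lysosomes, stood at 25.0, 26.7 and 23.1 TPM in floxed controls and at 41.3, 43.4 and 56.4 TPM in treated floxed libraries. The groups did not overlap. Its log2 fold change was 0.90 ± 0.23 (limma adjusted p = 0.0992). It passed with 12 separate libraries (0.00860), with only the floxed groups in the fit (0.0318) and without knockout control 5 (0.0284), and the range over alternatives was 0.00796 to 0.530. In the knockout it stood at 36.8, 30.2 and 21.7 TPM in controls and 45.5, 43.2 and 45.8 TPM with bexarotene, again without overlap (0.61 ± 0.29, adjusted p = 0.592). Npc2, its soluble partner in the lysosome, had a fold of 0.16 ± 0.12 with the drug in floxed animals and of 0.16 ± 0.15 in the knockout. The ratio of Npc1 to Npc2 ran from 1.18 to 1.47 among floxed controls. With bexarotene it ran from 2.01 to 2.54 in that genotype. It was 1.06 to 1.53 in knockout controls and 1.78 to 1.83 in the treated knockout, so the ratio did not overlap between treated and untreated libraries of either genotype.

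Insig2 (ENSMUSG00000003721) encodes one of the proteins that retain SCAP, and the liver is known to use a start of its own for this gene. It stood at 329, 220 and 275 TPM in floxed controls 1, 3 and 4 and at 593, 702 and 646 TPM in treated floxed libraries. In knockout controls 1, 2 and 5 it stood at 51.1, 78.3 and 376 TPM, and in the treated knockout at 638, 610 and 557 TPM. Treated libraries lay above all untreated ones in both genotypes, and knockout controls 1 and 2 lay below every other library. The fold under bexarotene was 1.23 ± 0.69 in floxed mice (limma adjusted p = 0.448) and 2.38 ± 0.87 in the knockout (adjusted p = 0.424). The fold of the knockout in controls was -1.25 ± 0.69 (adjusted p = 0.419), and under bexarotene the fold was -0.10 ± 0.87 (adjusted p = 0.982).

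Averaging floxed controls 1 and 3, at 329 and 220 TPM, kept the spread of Insig2 in the fit small for floxed controls. The spread that was left came mostly from knockout control 5. Without it the fold under bexarotene was 1.23 ± 0.18 in floxed mice (limma adjusted p = 0.0138) and 3.23 ± 0.24 in the knockout (adjusted p = 0.00184). Without it the fold of the knockout in controls was -2.10 ± 0.20 (adjusted p = 0.0020) and the difference between the bexarotene effects was 2.0 ± 0.30 (adjusted p = 0.0253). Over the alternatives the adjusted p ran from 0.00390 to 0.833, from 0.00184 to 1, from 0.0020 to 0.854 and from 0.0253 to 0.983 for these 4 comparisons. With only the floxed groups in the fit, Insig2 also passed (adjusted p = 0.00394).

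That library differed from its group in clock and fasting genes as well. The gap between evening and morning clock genes, as a difference of mean log2(TPM + 1), was -1.60 in knockout control 5 and 1.62 and 1.58 in knockout controls 1 and 2. In floxed controls 1, 3 and 4 the gap was -0.71, -0.75 and -1.27. Treated floxed libraries had gaps of 1.68 to 2.30, and treated knockout libraries of 0.83 to 0.92. Igfbp1, a gene induced by fasting, stood at 939 TPM in knockout control 5 and at 51.7 and 64.7 TPM in knockout controls 1 and 2. Igfbp1 stood at 896 to 921 TPM in treated knockout libraries and at 59.7 to 142 TPM in the floxed ones. Among the untreated libraries, Insig2 was at 220 to 376 TPM in the 4 with a gap below 0 and at 51.1 and 78.3 TPM in the 2 with a gap above 0. The part of clock phase or feeding in any of these comparisons was not tested. All the treated libraries had a gap above 0 and all floxed controls one below 0, so clock phase and bexarotene cannot be told apart in floxed mice. The summed level of 5 fasting and feeding genes was 2919 to 2972 TPM in the treated knockout and 1463 to 1558 TPM in treated floxed libraries. Feeding state and genotype therefore cannot be told apart under bexarotene either.

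**Figure D4:**
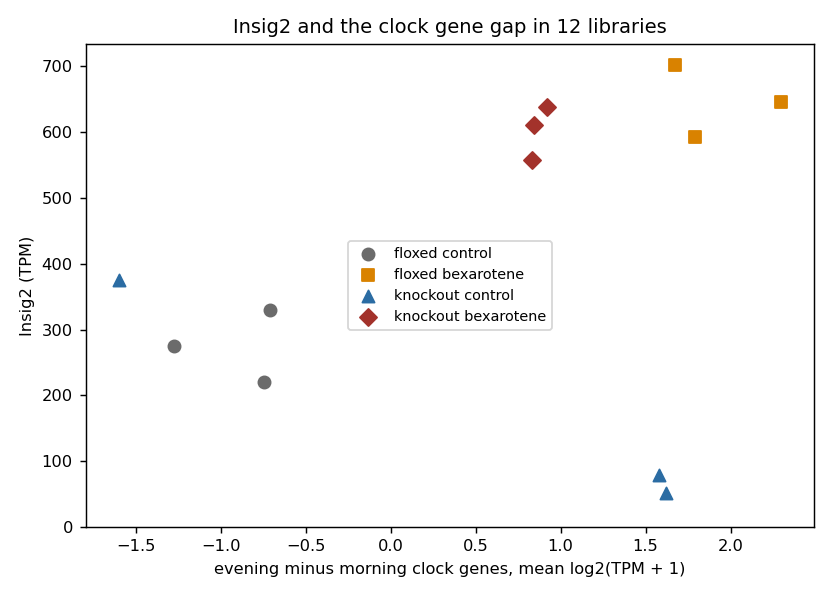
Insig2 in TPM against the gap between evening and morning clock genes (difference of mean log2(TPM + 1)) in each of the 12 libraries, by group. Knockout control 5, with a gap of -1.60, lies near the floxed controls, and knockout controls 1 and 2 lie lowest, at 51.1 and 78.3 TPM.

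Insig1, the other INSIG gene and a known SREBP2 target, had other levels. It stood at 56.0, 58.2 and 64.9 TPM in floxed controls, 65.8, 52.0 and 79.2 TPM in treated floxed libraries, 65.8, 103 and 76.0 TPM in knockout controls and 49.3, 47.4 and 46.6 TPM in the treated knockout. The treated knockout lay below all other libraries. Its log2 fold change under bexarotene was 0.086 ± 0.23 in floxed mice. In the knockout it was -0.73 ± 0.29, and neither passed (adjusted p = 0.901 and 0.477). The ratio of Insig2 to Insig1 ran from 3.77 to 5.88 among floxed controls. With bexarotene it ran from 8.16 to 13.5 in that genotype. In knockout controls 1, 2 and 5 it was 0.777, 0.763 and 4.94, and in the treated knockout 11.97 to 12.9.

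**Figure D5:**
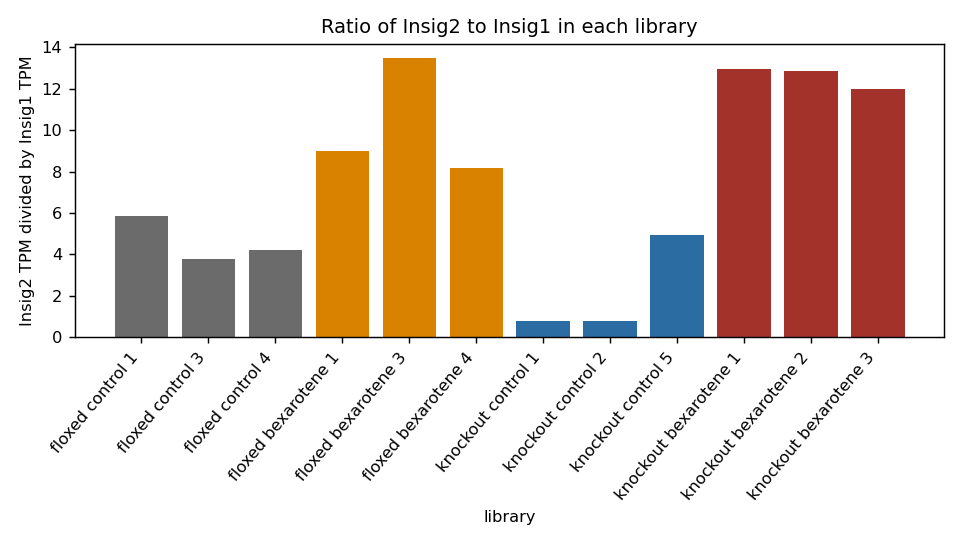
Insig2 TPM divided by Insig1 TPM in each of the 12 libraries (bars, from 0). The ratio is below 1 in knockout controls 1 and 2 and between 8.16 and 13.5 in all 6 libraries of bexarotene-treated mice.

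In the knockout bexarotene gave 0 of 28 calls by limma, where 0.417% of all tested genes passed higher and 0.0998% lower. The share of all tested genes at an unadjusted p under 0.05 was not counted. Members named here for such a p were Acat2 (0.66 ± 0.20), Scap (0.64 ± 0.23) and Insig2 above 0 and Insig1 below. The median log2 fold change of the members was 0.23, and it was 0.098 over all tested genes. Libraries did not overlap for 11 members (39.3%) that were higher with bexarotene and 3 (10.7%) that were lower, against 20% and 8.5% of all tested genes. The 3 lower ones were Msmo1 (-0.40 ± 0.32), Srebf2 (-0.31 ± 0.20) and Insig1. Msmo1 stood at 136, 124 and 124 TPM with the drug, below all knockout controls and above all floxed libraries, which were at 49.5 to 84.1 TPM. Acat2 stood at 47.3, 40.0 and 40.5 TPM in knockout controls and 67.5, 67.1 and 68.7 TPM with bexarotene, and Scap, the SREBP escort, at 23.9, 16.9 and 18.4 TPM against 32.0, 29.8 and 31.3 TPM. With 12 separate libraries Acat2, Scap, Insig2 and Npc1 passed higher and Insig1 lower, where 7.29% and 2.74% of all tested genes did.

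The difference between the bexarotene effects in the 2 genotypes also gave 0 calls by limma among the members, where 0.2% of all tested genes passed. With 12 separate libraries 1 member, Sc5d, passed higher and 0 lower, where 2.59% and 3.32% of all tested genes did. An unadjusted p under 0.05, not set against the share of all tested genes, was found for Sc5d (1.10 ± 0.40, not called). Sc5d encodes the desaturase of the last ring steps. It stood at 123, 119 and 160 TPM in floxed controls and 84.1, 77.3 and 129 TPM with bexarotene, and at 89.2, 126 and 97.9 TPM in knockout controls and 146, 154 and 151 TPM with bexarotene. Its floxed groups overlapped and its knockout groups did not. Srebf2 stood at 12.5, 13.8 and 13.4 TPM in floxed controls and 15.3, 14.8 and 16.6 TPM in treated floxed libraries. In the knockout it stood at 12.4, 10.1 and 14.3 TPM in controls and 9.74, 9.28 and 9.76 TPM with bexarotene. The floxed groups did not overlap and neither did the knockout groups, in opposite directions (difference -0.53 ± 0.25, adjusted p = 0.583). Soat2, which esterifies cholesterol in the liver, stood at 7.31 to 10.7 TPM in floxed libraries and at 10.6, 7.11 and 3.04 TPM in knockout controls 1, 2 and 5, and it passed in no comparison.

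Lists of genes around the pathway held further calls. Of 20 genes that supply acetyl-CoA or electrons or are known to respond to SREBPs, 3 rose and 1 fell in knockout controls, where 1.83% and 1.92% of all tested genes did. With bexarotene in floxed mice 2 rose and 0 fell (1.84% and 0.281% of all tested genes), and in the knockout 0 rose and 1 fell (0.417% and 0.0998%). Between the treated genotypes 0 were higher and 1 was lower in the knockout (0.681% and 1.25%). Aacs, which feeds acetoacetate into cytosolic lipid synthesis, stood at 4.52, 5.21 and 6.73 TPM in floxed controls and at 34.1, 31.2 and 28.9 TPM in knockout controls. It rose by 2.27 ± 0.18 (limma adjusted p = 3.99e-04). In the knockout it fell with bexarotene to 10.5, 9.18 and 10.3 TPM (-1.56 ± 0.22, adjusted p = 0.0324), while in treated floxed libraries it stood at 10.02, 10.2 and 13.1 TPM. Aacs was the 1 gene of this list for which the bexarotene effect was called different in the 2 genotypes (-2.39 ± 0.28, adjusted p = 0.0227). Tmem97, a known regulator of NPC1, rose in knockout controls (0.88 ± 0.17, adjusted p = 0.0274), and malic enzyme Me1 fell (-2.30 ± 0.33, adjusted p = 0.00875). Por, the electron donor of Sqle and Cyp51, rose with bexarotene in floxed mice from 188, 201 and 134 TPM to 783, 886 and 802 TPM (2.34 ± 0.24, adjusted p = 0.00277). Srebf1, the gene of SREBP1, also rose there, from 46.0, 47.1 and 62.3 TPM to 177, 179 and 240 TPM (1.85 ± 0.31, adjusted p = 0.0241). In the knockout Srebf1 stood at 24.8, 26.3 and 12.5 TPM in controls and 43.1, 42.7 and 44.2 TPM with the drug, which did not overlap and was not called. Between treated knockout and treated floxed samples it was called lower (-2.16 ± 0.39, adjusted p = 0.0329), where Srebf2 had a fold of -0.64 ± 0.20 (adjusted p = 0.196).

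Of 22 listed genes of sterol export and conversion with a row, 18 were tested. With bexarotene in floxed mice 4 rose and 1 fell, where 1.84% and 0.281% of all tested genes did. In knockout controls 2 rose and 1 fell, where 1.83% and 1.92% did. Between the treated genotypes 1 was higher and 2 were lower in the knockout, where 0.681% and 1.25% were. In the knockout 0 of 18 passed with bexarotene, where 0.417% and 0.0998% of all tested genes passed higher and lower, with 4 at an unadjusted p under 0.05 by limma. That last count stands without the share of all tested genes. The 3 with the smallest adjusted p in treated floxed mice were the sterol exporters Abcg8 (1.62 ± 0.14) and Abcg5 (1.66 ± 0.18) and Cyp8b1 (-2.65 ± 0.30), of bile acid synthesis. Abcg8 also rose in knockout controls (0.77 ± 0.14, limma adjusted p = 0.0219). Between treated knockout and treated floxed samples, Abcg5 was called lower (-1.23 ± 0.23, adjusted p = 0.0344) and Cyp8b1 higher (2.12 ± 0.38, adjusted p = 0.0320). Cyp7b1, which hydroxylates oxysterols, rose in knockout controls from 120, 121 and 124 TPM to 229, 237 and 370 TPM (1.15 ± 0.25, adjusted p = 0.0462).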

How the data were processed

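Hepatocyte RNA of 12 libraries was analysed from a single table. Per the labels' protocols, TRIzol extraction and DNase I treatment preceded a stranded mRNA library preparation. Per the submitters' processing notes, fastp, HISAT2 and StringTie were used, with no versions or roles stated. The genome build, and whether strand was used in counting, are not given in the sources used here. Values as deposited by the authors are TPM, and every column sums to about 1000000, so depth is unknown and no counting interval can be given. Column numbers differ from those of the sample titles, so a column was tied to its group alone and a library is called by its column number. Nothing in the labels says that samples came from separate animals; p-values therefore cover the spread between samples alone, which may be technical.

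Symbols were found for 21810 of 26748 identifiers. Pairs within a group were compared on genes above 10 TPM, in 20 classes of TPM times transcript length (GENCODE M21). Libraries whose spread beyond counting noise was below 0.1 log2 were averaged, leaving 9 samples. A gene was tested if 3 or more libraries reached 1 TPM. The fit on log2(TPM + 1) used limma (version 3.58.1; R version 4.3.3) and all 4 groups, with 5 residual and 3.22 prior degrees of freedom. Fold changes on that scale understate those of low genes. A gene rose or fell, or was called, at a Benjamini-Hochberg adjusted p under 0.05 over all tested genes. Counts at an unadjusted p under 0.05, of members or listed genes, stand without the share of all tested genes. They cannot show an excess over that share. Since the treated knockout is 1 sample, its variance is taken from the remaining groups. The members and lists were chosen with earlier results of these data known. Library values are given for called members and for the highest member of each role with none called, and up to 3 called genes with the smallest adjusted p stand for each related list and comparison. Genes given library by library outside this rule, among them Idi1, Cyp51, Srebf2, Insig1, Acat2, Scap, Sc5d and Soat2, were chosen after their values were seen. Alternatives were other pseudocounts, filters, scalings, libraries and groups in the fit.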

Additional observations from a re-analysis of the deposited data

Results flagged for a closer look

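Srebf2 was noted because every treated floxed library was above every floxed control (14.8 to 16.6 against 12.5 to 13.8 TPM). Every treated knockout library was below every knockout control (9.28 to 9.76 against 10.1 to 14.3 TPM). Taken singly, 25.7% and 8.5% of all tested genes were so. The share with both was not counted, and the treated knockout libraries count as 1 sample. The difference between the 2 bexarotene effects was -0.53 ± 0.25 on the log2 scale and did not pass (limma adjusted p = 0.583).

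Insig1 was noted because every knockout control was above every floxed control (65.8 to 103 against 56.0 to 64.9 TPM). Every treated knockout library was below every treated floxed one (46.6 to 49.3 against 52.0 to 79.2 TPM). Taken singly, 14.2% and 19.2% of all tested genes were so, and the share with both was not counted. The difference was -0.82 ± 0.36 and did not pass either (limma adjusted p = 0.543). Outliers in groups of 3 were not tested.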

How the results depend on the processing

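Counts of called members given below without the number of all tested genes called cannot show an excess over it. The number of called members depended most on how libraries were counted. With 12 libraries as separate samples it was 2 for bexarotene in floxed mice, 5 in the knockout, 10 for the knockout in controls, 14 under bexarotene and 1 for the difference. With only the groups compared it was 2 for bexarotene in floxed mice, where 614 of 11018 tested genes passed. For the knockout in controls it was then 1, where 158 of 11018 passed. With no filter on low values it was 0 for the knockout in controls, where 231 of 25804 passed. Without knockout control 5 it was 2 for bexarotene in floxed mice, where 553 of 11018 passed. With the GC and length trend removed it was 2 for the knockout under bexarotene. Without both floxed controls 1 and 3, an alternative chosen after seeing the data, it was 0 for the knockout in controls. Leaving out 1 library at a time gave 0 to 2, 0 to 1, 0 to 3, 0 to 1 and 0 to 1 in the order above. For the 36 pairs of a member and a comparison with an unadjusted p under 0.05, or a call under any alternative, 0 folds turned direction; 20 calls were lost and 45 gained over all alternatives. Scaling moved the median of all tested genes for bexarotene in the knockout from 0.098 to -0.021 (quantile normalization), -0.029 (centring) or -0.026 (GC and length). The members' median for bexarotene in floxed mice was -0.056 with quantile normalization in place of 0.084. The cause was not tested. The fit of only the groups compared cannot give the difference, which needs all 4 groups. Column numbers are not the replicate numbers of the titles, and only the floxed groups, numbered 1, 3 and 4 in both, allow a block by column number. Deviations of same-numbered libraries from their group means correlated at 0.0361, 0.00529 and 0.143, and floxed control 3 correlated best with floxed bexarotene 1 (0.161), so these numbers were not taken to pair the samples. The 6 floxed libraries were also counted separately, an alternative likewise chosen after seeing the data. With the replicate block 3 of 28 members passed, where 1242 of 11018 tested genes did. They were Npc1 and Insig2, higher, and Sc5d, lower (limma adjusted p = 0.0319 for Sc5d). Without the block 2 members passed, where 1474 of 11018 tested genes did. For the other comparisons no paired analysis was possible because their groups share at most 1 separate sample by number. Depth is unknown, so precision at low TPM cannot be stated.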

Other observations

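Genes around the pathway that were not described above gave few calls. The share of all tested genes at an unadjusted p under 0.05 was not counted, so the counts below at that threshold cannot show an excess. Of 17 genes of SREBP processing and sterol-regulated protein breakdown in the table, 0 passed limma's test in any of the 5 comparisons. Their unadjusted p was under 0.05 for 3 with bexarotene in floxed mice, 0 in the knockout, 5 for the knockout in controls, 2 under bexarotene and 1 for the difference. Of 14 genes of the isoprenoid branches, which make prenyl groups, ubiquinone and dolichol, 0 passed in any comparison, with 0, 0, 1, 1 and 2 at an unadjusted p under 0.05. Gramd1c, a member of the Aster family that moves cholesterol from the plasma membrane, fell in knockout controls from 4.45, 5.60 and 6.75 TPM to 0.72, 1.44 and 1.81 TPM (-1.59 ± 0.23, limma adjusted p = 0.00875). It also fell in the knockout under bexarotene, from 8.05, 7.84 and 9.18 TPM to 1.96, 2.94 and 2 TPM (-1.50 ± 0.29, adjusted p = 0.0417). Aldoc, an aldolase known to respond to SREBPs and named after its values were seen, rose in knockout controls from 7.08, 6.61 and 7.31 TPM to 16.4, 12.4 and 13.1 TPM (0.88 ± 0.17, adjusted p = 0.0313).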
